A study of Mus musculus with 4 samples.

Results

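The receptor genes Ptger2, Ptger3, Ptger4, Ptgir, Adrb1 and Hrh2, 6 of the 54532 genes in the deposited tables, were taken by name, and the rule used no measured value. Earlier results of these data were, however, known when these genes and the gene lists below were chosen. The 6 genes encode receptors for prostaglandins, catecholamines and histamine that act on cyclic AMP, as the A2 adenosine receptors do. RNA came from spleen PMN-MDSC of newborn C57BL/6 mice, the polymorphonuclear kind of myeloid-derived suppressor cell, which resembles a neutrophil and can dampen T cell responses. The purified cells were exposed for 5 days to DMSO, the solvent, or to NECA, an agonist of adenosine receptors that resembles adenosine but is broken down slowly, and 300000 cells per condition were lysed. Each group held 2 libraries, numbered 1 and 2. Whether these came from separate animals or cultures is not stated, so p-values reflect the spread between these libraries alone, and that spread may be technical. The dose of NECA, the sex and number of the mice and the conditions in which the cells were kept are not given in the labels. Cells from before the treatment were not analysed here.

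Receptors coupled to the stimulatory G protein Gs activate adenylyl cyclase, and the cyclic AMP formed activates protein kinase A and the exchange factors of the Epac family. In neutrophils a rise of cyclic AMP is known to restrain the oxidative burst, degranulation and chemotaxis, and adenosine, prostaglandin E2, prostacyclin, catecholamines and histamine can all act by this route. Ptger2 and Ptger4 encode the EP2 and EP4 receptors for prostaglandin E2, and Ptgir encodes the prostacyclin receptor. Adrb1 encodes the beta-1 adrenergic receptor, and Hrh2 the H2 histamine receptor. Ptger3 encodes the EP3 receptor for prostaglandin E2, which is known mainly for coupling to the inhibitory protein Gi and lowering cyclic AMP, so the shared name of Gs-coupled receptors does not describe it well.

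The libraries held 15864120 to 18712625 counts. The 12 neutrophil markers, which check the labelled cell type, were abundant: their summed level in CPM (counts scaled to a common library size) was 123120 and 128671 with DMSO and 136983 and 137897 with NECA. Markers of monocytes and macrophages summed to 556 and 495 CPM with DMSO, against 272 and 220.0 CPM with NECA, and 10 of the 14 were lower by edgeR's quasi-likelihood test, where 0.978% of all genes tested were (0 of 14 by limma on FPKM). Markers of B cells summed to 148 and 156 CPM with DMSO, against 79.8 and 14.0 CPM with NECA (1 of 10, Blnk, lower by edgeR, and 8 at an unadjusted p under 0.05). Erythroid markers summed to 1231 and 531 CPM, against 375 and 59.0 CPM (0 of 10 called by edgeR, 10 unadjusted), and those of T and NK cells to 29.7 and 31.9 CPM, against 18.3 and 19.2 CPM (0 of 6 tested called, 5 unadjusted). Those of mast cells, basophils and eosinophils summed to 121 and 128 CPM with DMSO, against 90.2 and 64.3 CPM with NECA. Of these, 1 of 11 tested, Ccr3, was lower by edgeR, and 6 were lower at an unadjusted p under 0.05. Dendritic cell, platelet and stromal markers each summed to at most 29.1 CPM, with 0 called by edgeR and 0, 0 and 1 unadjusted. Because the RNA is bulk RNA, fewer cells of a type and less RNA per cell cannot be told apart.

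The stretches before the transcription start are shown for the 3 receptor genes with the highest levels, because 2 of them, Ptgir and Hrh2, shared a base composition that was rare among promoters. All 6 genes matched the RefSeq promoter table (GRCm38.p6), and the 250 bases before the most upstream start are printed 5′ to 3′ on the gene's strand. Capitals mark GAGGAA, a core found in binding sites of the myeloid transcription factor PU.1.
Ptgir, chr7:16906240-16906489, plus strand: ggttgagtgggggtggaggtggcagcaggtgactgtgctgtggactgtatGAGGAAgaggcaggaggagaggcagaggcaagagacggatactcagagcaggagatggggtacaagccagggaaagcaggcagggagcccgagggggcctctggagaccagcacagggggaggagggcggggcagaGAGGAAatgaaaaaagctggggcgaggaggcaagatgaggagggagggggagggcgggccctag
Hrh2, chr13:54191879-54192128, plus strand: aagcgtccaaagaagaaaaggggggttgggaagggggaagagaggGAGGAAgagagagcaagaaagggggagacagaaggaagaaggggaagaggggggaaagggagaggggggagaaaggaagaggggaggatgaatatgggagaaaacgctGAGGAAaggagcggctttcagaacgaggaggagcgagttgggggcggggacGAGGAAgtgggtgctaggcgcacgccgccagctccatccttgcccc
Ptger2, chr14:44987861-44988110, plus strand: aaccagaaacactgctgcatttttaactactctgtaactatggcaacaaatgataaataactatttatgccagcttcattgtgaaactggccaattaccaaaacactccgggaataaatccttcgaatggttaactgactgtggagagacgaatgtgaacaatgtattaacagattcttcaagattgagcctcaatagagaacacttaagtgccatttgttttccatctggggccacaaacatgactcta
Purines (A or G) made up 76.4% of the Ptgir stretch and 80% of the Hrh2 stretch, against a median of 50% over 27025 promoters. Of these promoters, 28 had at least the purine content of Ptgir and 10 that of Hrh2. The Ptger2 stretch, with 51.6% purines, was near the median, as were Ptger3 (49.6%) and Ptger4 (46.8%), while Adrb1 had 58%. Searched on both strands, GAGGAA was found 2 times before Ptgir, at 200 and 64 bases before the start, and 3 times before Hrh2, at 205, 97 and 46 bases. It was not found before the other 4 genes, and 23.1% of all promoters held it at least once and 0.437% at least 3 times. GAGGAA consists of purines alone, so matches are more likely in windows as rich in purines as those of Ptgir and Hrh2. The shares over all promoters are not matched for that composition. The element bound by the cyclic AMP factor CREB, TGACGTCA, was in none of the 6 windows and in 1.60% of all promoters. Its shorter core TGACG, which lies within it, was found once, 90 bases before Adrb1, and in 17.8% of all promoters. The purine content was noticed after the sequences were read, and these matches describe letters in the windows and nothing about binding.

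Transcript levels of the receptor genes spanned a wide range. Levels between genes are compared as FPKM, in which reads are scaled by gene length and library size, and levels of 1 gene between libraries as CPM.

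**Figure D1:**
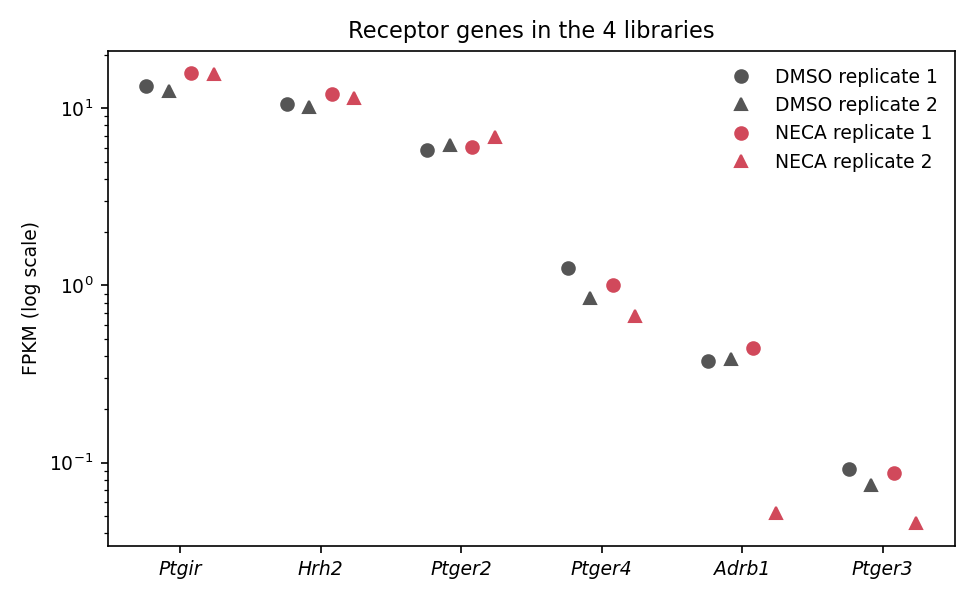
FPKM (log axis) of the 6 receptor genes in each library, DMSO in grey and NECA in red, circles for replicate 1 and triangles for replicate 2, with no error bars. Ptgir, Hrh2 and Ptger2 lie between 5.82 and 15.8 FPKM in all libraries, Ptger4 near 1, and the lowest Adrb1 value, 0.0520, is that of NECA replicate 2.

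Ptgir had the highest level, with 13.3 and 12.4 FPKM in DMSO replicates 1 and 2 and 15.8 and 15.6 FPKM in NECA replicates 1 and 2. Hrh2 came next, with 10.6 and 10.2 FPKM with DMSO and 12.1 and 11.4 FPKM with NECA. Ptger2 had 5.82 and 6.24 FPKM with DMSO and 6.07 and 6.89 FPKM with NECA. These 3 genes together made up most of the summed FPKM of the 6 in every library, with Ptgir alone at 42.3% and 41.3% with DMSO and 44.4% and 45.0% with NECA.

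The other 3 genes were low. Ptger4 had 1.26 and 0.852 FPKM with DMSO and 1.01 and 0.672 FPKM with NECA. Adrb1 had 0.376 and 0.382 FPKM with DMSO and 0.441 and 0.0520 FPKM with NECA. Ptger3 had 0.0916 and 0.0744 FPKM with DMSO and 0.0870 and 0.0456 FPKM with NECA. The ranges of neighbouring genes did not overlap over the 4 libraries, except for Adrb1 and Ptger3, whose ranges did, although Adrb1 was the higher gene in 4 of 4 libraries. The order Ptgir, Hrh2, Ptger2, Ptger4, Adrb1, Ptger3 was the same in every library. Dividing CPM by the exon length annotated in GENCODE M21 gave the same order, but this is not a separate check. The resulting means nearly equalled the mean deposited FPKM, except for Adrb1 (0.231 against 0.313). Between the 2 receptors for prostaglandin E2 that raise cyclic AMP, Ptger2 was 4.61 and 7.32 times as high as Ptger4 with DMSO and 6.01 and 10.2 times with NECA. Exons of both genes overlap antisense genes, and how reads from such stretches were counted is not known, so these ratios are uncertain. These levels are a description, with no test between genes.

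Set beside other receptors, the 3 higher genes were among the most abundant Gs-coupled receptor transcripts of the lists. The nearest were Gpr65, a proton-sensing receptor, with 7.76 and 9.74 FPKM with DMSO and 9.81 and 8.55 FPKM with NECA, and Calcrl, the receptor for calcitonin gene-related peptide and adrenomedullin, with 10.0, 7.35, 9.33 and 9.09 FPKM in the same order. Both lay below Ptgir and above Ptger2 in every library, and their ranges overlapped each other. Ramp1, the partner protein that turns Calcrl into a receptor for calcitonin gene-related peptide, had 7.41 to 10.2 FPKM and was likewise above Ptger2. Vipr1, a receptor for vasoactive intestinal peptide, followed at 1.71 to 1.97 FPKM. Of the adenosine receptors that raise cyclic AMP, Adora2a had 0.212 to 0.294 FPKM and Adora2b 0.0351 to 0.395 FPKM, below Ptger4 in all libraries.

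**Figure D2:**
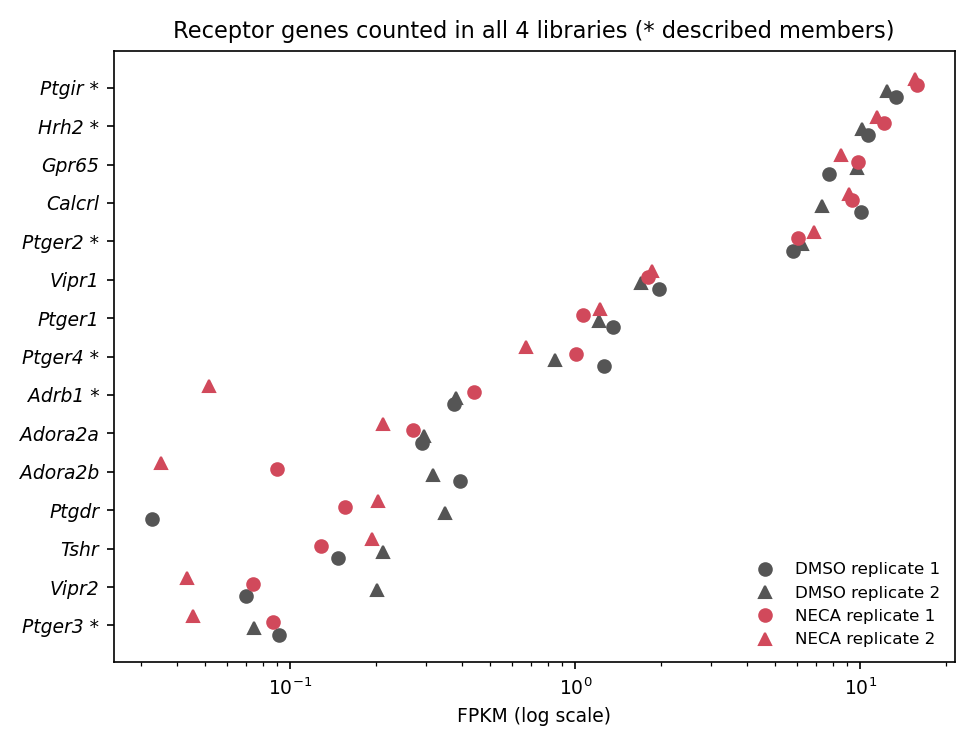
FPKM (log axis) of every listed receptor gene with at least 1 count in each of the 4 libraries, ordered by mean level, with an asterisk at the 6 receptor genes described; DMSO is grey, NECA red, circles replicate 1 and triangles replicate 2. Ptgir and Hrh2 stand at the top, and Adora2a and Adora2b lie below 0.4 FPKM.

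Among the other receptors for the same ligands, 8 of 15 had no count in any library, and 2 passed the filter on low counts. Those were Ptger1, a receptor for prostaglandin E2 that signals by calcium and whose counts are uncertain, and Ptgdr, a receptor for prostaglandin D2 that raises cyclic AMP, at 0.0327 to 0.349 FPKM. Hrh1, Hrh3 and Adrb3 were among the 8 without a count, and Hrh4 had 0 to 5 counts.

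The comparison of NECA with DMSO asks whether the RNA of receptors that share the route of A2 adenosine receptors differed after exposure to NECA. Activation of the adenosine receptors themselves was not measured. None of the receptor genes passed. By edgeR's quasi-likelihood test of 5 of them, 0 were called higher and 0 lower at an adjusted p under 0.05, and Ptger3 was too low to test. Over all genes tested, 174 of 13083 were called, or 1.33%, of which 0.352% were higher and 0.978% lower, so 0 of 5 is near the background. At an unadjusted p under 0.05 there were 2, Ptgir and Hrh2, both with higher values, where the share over all genes was 15.7% in either direction and 6.81% upwards. DESeq2's Wald test and limma on FPKM called none of these genes either, with Ptgir at an unadjusted p under 0.05 in both (DESeq2 gave Adrb1 no adjusted p). With 2 libraries a group, a missed threshold does not show that a level stayed as it was, and each gene's interval is therefore given.

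**Figure D3:**
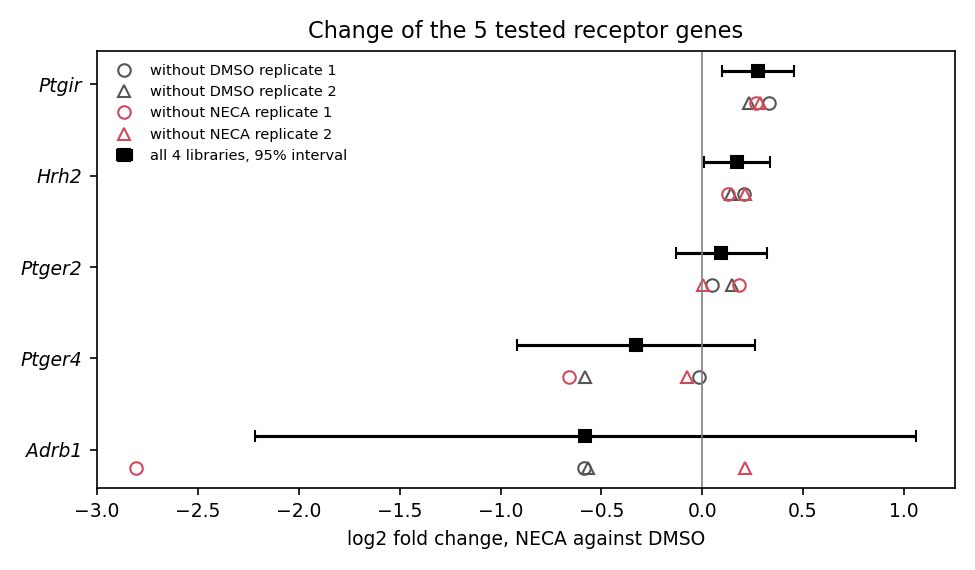
Log2 fold change (NECA against DMSO) of the 5 tested receptor genes; black squares with bars give edgeR's value from all 4 libraries and its 95% interval, and open symbols the value with 1 library left out. The intervals of Ptger2, Ptger4 and Adrb1 cross 0, and the value of Adrb1 runs from -2.81 to 0.21 with the library left out.

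Ptgir, the prostacyclin receptor gene (chr7:16906490-16910905, GRCm38; Ensembl gene ENSMUSG00000043017), had 44.5 and 41.6 CPM with DMSO, against 52.4 and 51.8 CPM with NECA. Both NECA libraries were above both DMSO libraries, a pattern shown upwards by 22.4% of all genes tested. Its log2 fold change was 0.28 (SE 0.08), a fold of 1.21 with a 95% interval of 1.07 to 1.37, and it did not pass edgeR's test over all genes (unadjusted p = 0.00595, adjusted p = 0.121). Over the alternatives the value ran from 0.20 to 0.33 and the adjusted p from 0.0966 to 0.356. No annotated exon of another gene overlaps Ptgir, and no other transcript shared a long stretch with it at 95% identity.

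Hrh2, the H2 histamine receptor gene (chr13:54192129-54236180; ENSMUSG00000034987), had 63.2 and 60.5 CPM with DMSO, against 71.7 and 67.5 CPM with NECA. Again the NECA libraries were both above the DMSO libraries. The log2 fold change was 0.17 (SE 0.08), a fold of 1.13 with a 95% interval of 1.005 to 1.26, with edgeR's unadjusted p = 0.0427 and adjusted p = 0.298. The antisense gene Gm16578 overlaps 145 bases of its exons but had 10 to 29 counts, against 1045 to 1306 for Hrh2.

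Neutrophil markers also had values above 0. Of the 12 neutrophil markers, 12 had a log2 fold change above 0, with a median of 0.17 against -0.0065 over all genes tested; Ngp and Camp were below 0 with library size alone, which moved the median of all genes tested to -0.08. By edgeR 2 of them, Mmp8 and Mmp9, were higher, where 0.352% of all genes tested were, and that count was 0 with library size alone, with limma and without DMSO replicate 1, and up to 9 in other settings. Hrh2 was at the median of these markers, and Ptgir was above all of them except Retnlg (0.37). H2 receptors are also known from basophils and mast cells, and the summed markers of mast cells, basophils and eosinophils were 121 and 128 CPM with DMSO, against 90.2 and 64.3 CPM with NECA. The part of any of these cells in the receptor values was not tested. Genes with a like profile were common: 1291 of 2884 genes of similar level lay within 0.1 (root mean square log2 difference over 4 libraries) of Hrh2 and 434 of 3114 within 0.1 of Ptgir. Nearest to Hrh2 were Rap2a, Dscr3 and Atxn7l3b, and nearest to Ptgir were Sesn2, Rab11fip4 and Adam15.

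Ptger2, the EP2 receptor gene (chr14:44988195-45003820; ENSMUSG00000037759), had 30.3 and 32.5 CPM with DMSO, against 31.5 and 35.7 CPM with NECA. The groups overlapped, with NECA replicate 1 between the DMSO libraries. The log2 fold change was 0.09 (SE 0.10), a fold of 1.07 with a 95% interval of 0.912 to 1.25 (edgeR, adjusted p = 0.739). Its counts are uncertain at the margin because the antisense genes Gm17173 and Gm49364 overlap 246 and 144 bases of its exons, and Gm17173 had 188 to 278 counts against 552 to 612 for Ptger2. Nearest in profile were Haspin, Arsb and Tcta, and 1067 of 3157 genes of similar level lay within 0.1 of it.

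Ptger4, the EP4 receptor gene (chr15:5206661-5244187; ENSMUSG00000039942), had 8.41 and 5.68 CPM with DMSO, against 6.70 and 4.46 CPM with NECA, from 161, 107, 122 and 69 counts. The groups overlapped, and within each group replicate 1 was above replicate 2. The log2 fold change was -0.33 (SE 0.27), a fold of 0.795 with a 95% interval of 0.528 to 1.20 (edgeR, adjusted p = 0.628). The value was -0.02 without DMSO replicate 1, -0.07 without NECA replicate 2, -0.58 without DMSO replicate 2 and -0.66 without NECA replicate 1. EP4 is also known from macrophages and lymphocytes. The summed macrophage markers given above were likewise higher in replicate 1 than in replicate 2 of each group, with all 14 detected in each library. The summed T and NK cell markers were lower in replicate 1 (29.7 against 31.9 CPM with DMSO, 18.3 against 19.2 CPM with NECA). Those of B cells were lower in replicate 1 with DMSO (148 against 156 CPM) and higher with NECA (79.8 against 14.0 CPM). The part of these cells in the Ptger4 value was not tested. Of the antisense genes that overlap the exons of Ptger4, Gm15937 (1015 bases) had 0 counts in the 4 libraries and Ttc33 (82 bases) 138 to 199. How reads from shared stretches were counted is not known, so the counts of Ptger4 are uncertain there. Nearest in profile were Zeb2, Hspbp1 and Nsun5, and 11 of 2321 genes of similar level lay within 0.1 of it.

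Adrb1, the beta-1 adrenergic receptor gene (chr19:56722199-56733113; ENSMUSG00000035283), had 18 and 18 counts with DMSO and 20 and 2 with NECA. NECA replicate 2 stood apart, with an exact Poisson 95% interval of 0.242 to 7.22 counts, against 12.2 to 30.9 counts in NECA replicate 1 and 10.7 to 28.4 counts in each DMSO library. Such intervals cover counting error only. On the CPM scale the values were 0.941, 0.956, 1.10 and 0.129, and NECA replicate 1 was the highest of the 4 libraries.

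The log2 fold change of Adrb1 was -0.58 (SE 0.75), a fold of 0.669 with a 95% interval of 0.215 to 2.08 (edgeR, adjusted p = 0.785), and this value rests on NECA replicate 2. Without NECA replicate 2 it was 0.21, and without NECA replicate 1 it was -2.81. The summed markers of B cells were also lowest in NECA replicate 2, at 14.0 CPM against 79.8 CPM in NECA replicate 1 and 148 and 156 CPM with DMSO, with 1 of 10 markers (Ebf1) at 0 counts there. Erythroid, macrophage and mast cell marker sums were lowest in that library too, and the part of any of these cells in the Adrb1 value was not tested. Of genes with a like profile, Tmem37, Add2 and Ccr7 were nearest, and 2 of 1341 lay within 0.1.

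Ptger3, the EP3 receptor gene (chr3:157566892-157645888; ENSMUSG00000040016), had 10 and 8 counts with DMSO and 9 and 4 with NECA. The exact Poisson 95% intervals were 4.80 to 18.4, 3.45 to 15.8, 4.12 to 17.1 and 1.09 to 10.2 counts in that order. All 4 intervals overlap, and at these counts no test between the groups was made.

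**Figure D4:**
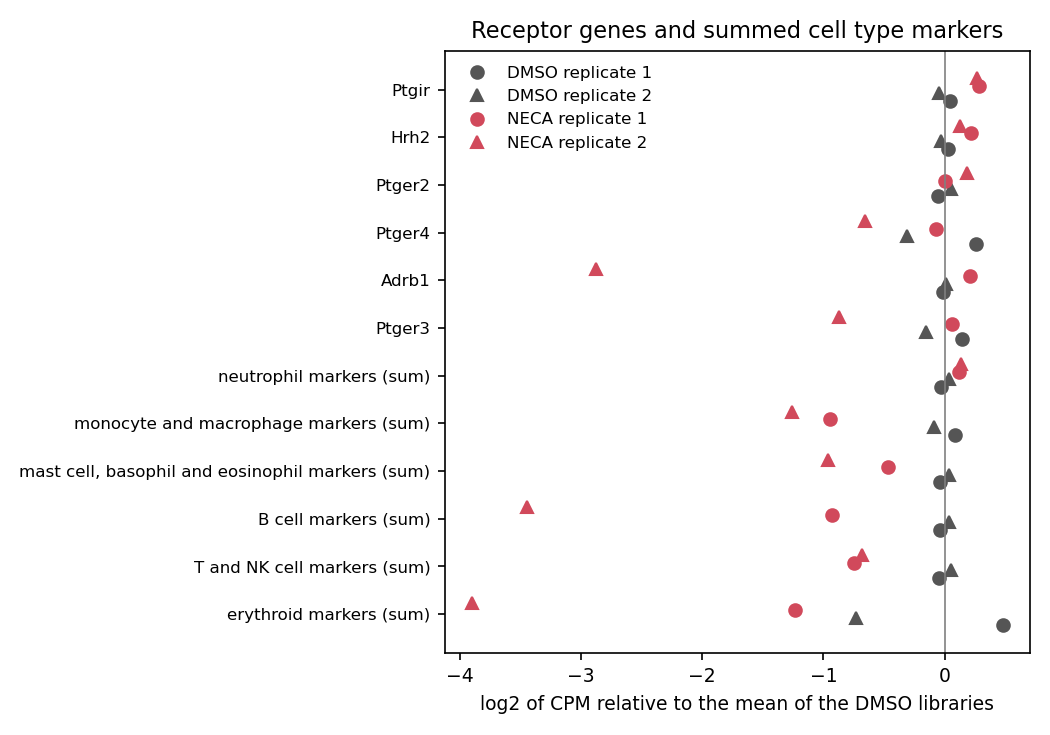
Log2 of CPM relative to the mean of the DMSO libraries, for the 6 receptor genes and for the summed markers of 6 groups of cells; DMSO is grey, NECA red, circles replicate 1 and triangles replicate 2. Ptgir and Hrh2 lie just above 0 with NECA, like the neutrophil markers, while Adrb1 and the B cell markers are lowest in NECA replicate 2.

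The cells also held transcripts of enzymes that supply the ligands. Ptgs1, a cyclooxygenase that starts prostanoid synthesis, had 63.1 and 62.8 FPKM with DMSO and 59.0 and 61.1 FPKM with NECA, while Ptgs2, the inducible cyclooxygenase, had 0.255 to 0.728 FPKM. Ptges, which completes prostaglandin E2, had 11.7 to 13.0 FPKM, and Ptgis, which completes prostacyclin, had 0 to 2 counts. Ptgis, which makes the ligand of Ptgir, was thus under the floor of 3 counts in each library. Hdc, the enzyme that makes histamine, had 50.5 and 49.8 FPKM with DMSO and 58.1 and 57.7 FPKM with NECA, beside the levels of Hrh2 given above. Of the enzymes of catecholamine synthesis, Th, Ddc and Dbh had 0 or 1 count in each library.

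Of 24 genes of ligand supply and removal, 15 were tested, 0 were called higher and 0 lower by edgeR, and 5 had an unadjusted p under 0.05 (1 above 0 and 4 below), where 15.7% of all genes tested did. The list's median log2 fold change was 0.05 against -0.0065 over all genes tested. Hdc stood at 0.20 (SE 0.05, adjusted p = 0.0844), with both NECA libraries above both DMSO libraries. Tbxas1, the thromboxane synthase, stood at -1.18 (SE 0.26, adjusted p = 0.0551), and Hpgd, which inactivates prostaglandin E2, at -1.48 (SE 0.39, adjusted p = 0.0879). Hpgd had 7.09 and 7.92 FPKM with DMSO and 4.18 and 1.12 FPKM with NECA. Its NECA libraries were thus both below the DMSO libraries, as in 24.3% of all genes tested, but far from each other. Tbxas1, Hpgd and the prostaglandin D2 synthase Hpgds (-1.60, adjusted p = 0.109) had negative values, as 14 of 14 monocyte and macrophage markers did, and the part of those cells was not tested.

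Genes of the machinery that the receptors engage ranged from very high to very low levels. Of 38 genes, 37 were tested, and 0 were called in either direction by edgeR. At an unadjusted p under 0.05 there were 11 (6 above 0 and 5 below), against 15.7% over all genes tested. The median log2 fold change was 0.04. Prkar1b, among the 5 below, had 19 and 15 counts with DMSO and 3 and 2 with NECA. It passed the filter through its DMSO libraries alone and so was bound to lean negative. Gnai2, a Gi subunit, had 452 to 532 FPKM and Arrb2, the beta-arrestin that uncouples and internalizes receptors, 349 to 379 FPKM. Adcy7, the most abundant of the listed adenylyl cyclases, had 61.9 and 56.5 FPKM with DMSO and 58.4 and 58.2 FPKM with NECA. Gnas, the Gs subunit, had 2.83 to 3.71 FPKM, from 31.6 to 41.6 CPM. The merged exons of its 24 annotated transcripts come to 11186 bases, so its FPKM would understate a level that comes from shorter transcripts. Its counts are also uncertain at the margin. Of its exons, 988 bases overlap the antisense gene Nespas and 1469 bases Gm20721, which had 0 to 3 counts each. The Epac factors were low, with Rapgef3 at 0.159 to 0.362 FPKM and Rapgef4 at 0.0247 to 0.0858 FPKM. The smallest p-values belonged to Prkacb, a catalytic subunit of protein kinase A (-0.31, adjusted p = 0.102), Pde7a, a cyclic AMP phosphodiesterase (-0.64, adjusted p = 0.102), and Akap13, an anchoring protein (0.17, adjusted p = 0.109).

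Among the other Gs-coupled receptors, 7 of 23 were tested, 0 were called by edgeR in either direction, 2 had an unadjusted p under 0.05 (1 above 0 and 1 below; 15.7% over all genes tested) and the median log2 fold change was -0.02. Ramp1 stood at 0.35 (SE 0.11, adjusted p = 0.136) and Adora2b at -2.41 (SE 0.86, adjusted p = 0.192), the latter from 14, 11, 3 and 1 counts. Adora2b, the gene below 0, passed the filter through its DMSO libraries alone. A gene that enters in that way is bound to lean negative. Calcrl stood at 0.08 (adjusted p = 0.837). Of the receptors for the same ligands, Ptgdr stood at -0.10 (adjusted p = 0.977), and 0 of the 2 tested were called by edgeR or had an unadjusted p under 0.05.

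The list headed as transcripts induced by cyclic AMP held the only called genes of the receptor, ligand and signalling lists. Its genes were set by name, and whether cyclic AMP induces them in these cells, Thbs1 included, was not tested. Of 21 genes, 16 were tested, 0 were higher, 4 were lower and 12 did not pass edgeR's test, where 0.978% of all genes tested were lower. The list was chosen with earlier results of these data known, so the 2 shares are not an independent comparison. The list's median log2 fold change was -0.34. Fos, a subunit of the transcription factor AP-1, had 115 and 142 CPM with DMSO, against 80.3 and 74.1 CPM with NECA, and fell by 0.73 on the log2 scale (SE 0.10, adjusted p = 0.00359). Fosb, a related subunit, fell by 1.44 (adjusted p = 0.0372), Dusp1, a phosphatase that ends MAP kinase signalling, by 0.38 (adjusted p = 0.0372), and Thbs1, a secreted thrombospondin, by 0.36 (adjusted p = 0.0100). All 4 are known to respond to stimuli such as growth factors and stress. Junb, another AP-1 subunit and among the most abundant of the list, stood at -0.20 (adjusted p = 0.312). These genes are also active in macrophages, whose markers were lower with NECA as given above, and the part of those cells in the 4 falls was not tested.

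With any 1 library left out, the value of Fos stayed below 0, at -0.87 to -0.56. Such a fit leaves 1 group with a single library, assumed to vary like the others, so calls from it are uncertain. None of the 4 calls passed with limma on FPKM at either pseudocount. Leaving out DMSO replicate 1 ended the calls of Fosb and Dusp1, at adjusted p-values of 0.180 and 0.115. Leaving out DMSO replicate 2 ended those of Fosb (0.104), Dusp1 (0.180) and Thbs1 (0.0696). Over all the genes of this list, 2 were lower when DMSO replicate 1 was left out, and 1 when DMSO replicate 2 was. Leaving out NECA replicate 1 gave 8 lower genes and leaving out NECA replicate 2 gave 5. Nr4a1, a nuclear receptor that cyclic AMP induces, stood at -0.24 (adjusted p = 0.47) and Sik1, a kinase that cyclic AMP also induces, at -0.32 (adjusted p = 0.0725).

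**Figure D5:**
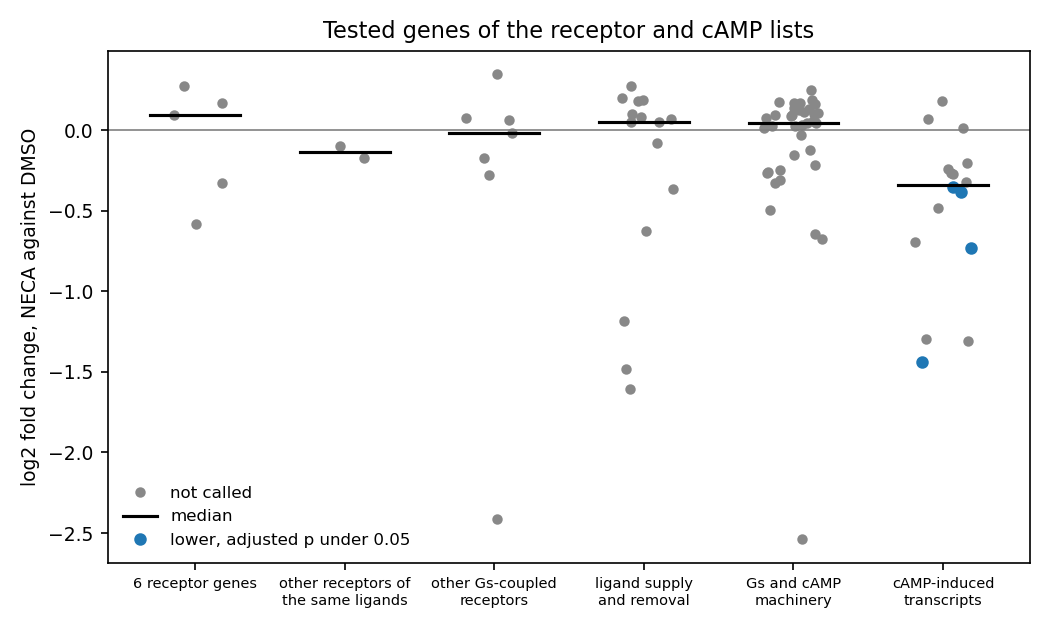
Log2 fold change (NECA against DMSO) of the tested genes of the 6 lists, 1 point a gene, with the median of each list as a black line; blue points are lower at an adjusted p under 0.05 by edgeR and grey points are not called. The 4 blue points, Fos, Fosb, Dusp1 and Thbs1, belong to the list headed as induced by cyclic AMP, a response that was not tested in these cells.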

How the data were processed

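RNA of 2 DMSO and 2 NECA libraries was analysed. Per the file headers, the authors deposited 54532 Ensembl genes per library, each with a count of reads and an FPKM value. The labels' protocols give SMARTer cDNA synthesis, PCR, enzymatic fragmentation and paired reads; amplification without molecular identifiers means that counts are not independent molecules. The submitters' processing notes name HISAT, StringTie, edgeR, mm10 and GRCm38. Not given in the sources used here were the counter, the annotation release, the strand setting and how reads matching several genes were treated, so reads of overlapping genes cannot be told apart.

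The deposited counts were filtered with filterByExpr (minimum count 10), scaled by TMM and tested in R 4.3.3 with edgeR 4.0.16 (quasi-likelihood test, 2 residual degrees of freedom, Benjamini-Hochberg adjustment over 13083 genes, threshold 0.05). The variance of each gene was moderated with that of the other genes, so p-values and intervals rest on more than 2 degrees of freedom. Each SE was computed as log2 fold change over the root of the F statistic, and 95% intervals are per gene, unadjusted. CPM uses TMM-scaled library sizes, at which 3 counts equal 0.157 to 0.194 CPM. Libraries of a group were not copies (chi-square per degree of freedom of 6.36 and 5.01). Coordinates, exons and overlaps are from GENCODE M21 (GRCm38). Alternatives used DESeq2 1.42.0 and limma 3.58.1 on log2 of the deposited FPKM plus 1 or 0.1. With 1 library left out, the lone library is assumed to vary like the others.

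The receptor genes and gene lists were chosen with earlier results of these data known. Named genes were the 6 receptor genes, up to 3 genes per receptor, ligand or signalling list with the smallest p, called genes, up to 2 with the highest FPKM, and the 3 nearest profiles (prior count 2) within a 2-fold range of level. Vipr1, Adora2a, Ptges, Ptgs2, Ptgis, Hpgds, Adcy7, Gnas, Gnal, Prkar1b, Nr4a1, Sik1, Ebf1, Ngp, Camp, Retnlg, Rapgef3, Rapgef4, the absent receptors and enzymes, and the purine content were chosen after values were seen. The rule's marker genes are given as sums and counts, with Mmp8, Mmp9, Blnk and Ccr3 named. Sequence sharing was searched with blastn at 95% identity, with settings that report long stretches only.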

Additional observations from a re-analysis of the deposited data

How the results depend on the processing

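None of the 5 tested receptor genes was called under any of the 12 alternatives, and the signs of Ptgir, Hrh2, Ptger2 and Ptger4 were the same under all of them. The value for Hrh2 ran from 0.10 to 0.21, for Ptger2 from 0.0030 to 0.18 and for Ptger4 from -0.66 to -0.02. Adrb1 changed sign without NECA replicate 2, at 0.21, with a range of -2.81 to 0.21 over left-out libraries; at 2 to 20 counts its depth limits any statement, and it did not pass a filter of 1 CPM in 2 libraries.

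Counts over all genes (46 higher, 128 lower) depended on the setting; the cause was not tested. With library size alone they were 21 and 217, with DESeq2's Wald test 143 and 157, with limma on log2(FPKM + 1) or log2(FPKM + 0.1) 1 and 0, and with no filter on low counts 285 and 590. Library size alone moved the share of higher calls from 26.4% to 8.82%, and DESeq2's Wald test to 47.7%. With 1 library left out, 8 to 227 genes were higher and 45 to 594 lower. Of the other genes of the receptor, ligand and signalling lists (76 tested; 0 higher, 4 lower), 2 were higher with DESeq2's Wald test and with no filter, and 0 to 1 with a library left out. Lower were 8 with library size alone, 0 with limma at either pseudocount, 10 with no filter and 1 to 12 with a library left out.

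No label says that libraries of equal number share an animal or batch, so the main fit did not pair them. Deviations of same-numbered libraries correlated at 0.02 over genes, which cannot show whether the samples were paired. With the replicate number as a block, 123 genes were higher and 298 lower, and 9 of the listed genes were lower. The block gave Ptgir 0.28 (adjusted p = 0.11), Hrh2 0.17, Ptger2 0.09, Ptger4 -0.34 and Adrb1 -0.86, and called none of them.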
